A study of Mus musculus with 8 samples.

Results

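Eomes, Lmx1a, Lmx1b and Otx2, transcription factors known from the rhombic lip lineages of the hindbrain, were followed through the cell types of the paraflocculus and flocculus (PF/F), a pair of lateral cerebellar lobules. The 4 genes were taken by symbol from the 32285 genes counted, for their place in the biology of unipolar brush cells and with earlier results of these data known. Single-nucleus RNA sequencing was run on PF/F dissected at postnatal day (P) 5.5 from mice lacking 1 copy of Tbx1 (Tbx1+/-) and from their wild-type (WT) littermates, with 2 libraries per genotype and 5 mice pooled in each. The same design was applied to the petrous temporal bone (PTB), the skull bone that surrounds the lobules. In the deposited annotation 48237 PF/F nuclei carried 1 of 16 cell type labels and 9721 barcodes carried none. All levels below are raw unique molecular identifiers (UMIs) summed per library over a type, as UMIs per 1e+06 UMIs of that sum (counts per 1e+06, CPM). Unless stated, values are mean ± SD over the 4 PF/F libraries (n = 4), and p-values measure only the spread between these libraries.

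Unipolar brush cells are small glutamatergic interneurons of the cerebellar granular layer. They amplify mossy fiber input through a brush-like dendrite and are dense in the vestibular lobules, the flocculus among them. Like granule neurons they descend from the rhombic lip, the dorsal margin of the hindbrain neuroepithelium, whose Lmx1a-positive dorsal edge also gives rise to the hindbrain choroid plexus. Eomes (Tbr2), a T-box factor, is expressed in brush cells after they leave the rhombic lip. Lmx1a and Lmx1b are paralogous LIM-homeodomain factors of the roof plate, and Otx2 is a homeodomain factor of the fore- and midbrain that later serves granule neuron progenitors and the choroid plexus.

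Annotated nuclei per PF/F library numbered 9153 to 13835, with median depths of 2610 to 3503 UMIs, and libraries shared 0.341% to 0.614% of the barcodes of the smaller one. Tbx1, the deleted gene, was close to undetected in PF/F, at 4 and 10 UMIs in WT and 11 and 13 in Tbx1+/- libraries. In PTB it stood at 38.9 and 39.4 CPM in WT and at 26.3 and 35.7 in Tbx1+/-. The annotation was made from the genes of these same nuclei, the 4 factors included, so levels by type are described without a test. In planning, Eomes and Lmx1a were listed as the study's markers of unipolar brush cells, so high levels there can come from the labelling.

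The genes were located on 4 chromosomes of GRCm38 (GENCODE vM21). Eomes (ENSMUSG00000032446) spans chr9:118478212-118486132 on the plus strand and Lmx1a (ENSMUSG00000026686) chr1:167689237-167848741 on the plus strand. Lmx1b (ENSMUSG00000038765) spans chr2:33560965-33640511 and Otx2 (ENSMUSG00000021848) chr14:48657677-48673819, both on the minus strand. The antisense gene Otx2os1 overlaps Otx2 from the opposite strand (chr14:48668708-48870683), and whether strand was used in counting is not given in the sources used here, so reads from the shared stretch could not be assigned to 1 of the genes with certainty. For the 3 members with the highest levels, the 250 bases before a RefSeq transcript start (GRCm38.p6) are printed 5′ to 3′ on the gene's own strand. They are chr9:118477939-118478188 for Eomes, chr1:167689308-167689557 for Lmx1a and chr14:48667645-48667894 for the most upstream of the 4 Otx2 windows searched. The Lmx1a and Otx2 windows lie inside the GENCODE spans given above, which begin further upstream. Capitals mark TAATTA, a core bound by LIM-homeodomain proteins.
Eomes: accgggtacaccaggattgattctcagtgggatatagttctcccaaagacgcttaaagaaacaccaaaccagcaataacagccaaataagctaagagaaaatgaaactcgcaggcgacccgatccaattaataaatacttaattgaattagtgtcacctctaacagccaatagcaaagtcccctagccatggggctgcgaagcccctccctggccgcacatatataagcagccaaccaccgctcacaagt
Lmx1a: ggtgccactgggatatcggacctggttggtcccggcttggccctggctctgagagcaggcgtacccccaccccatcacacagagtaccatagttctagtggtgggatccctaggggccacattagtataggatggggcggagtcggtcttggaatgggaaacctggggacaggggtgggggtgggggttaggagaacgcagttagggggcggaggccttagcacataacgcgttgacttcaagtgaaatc
Otx2: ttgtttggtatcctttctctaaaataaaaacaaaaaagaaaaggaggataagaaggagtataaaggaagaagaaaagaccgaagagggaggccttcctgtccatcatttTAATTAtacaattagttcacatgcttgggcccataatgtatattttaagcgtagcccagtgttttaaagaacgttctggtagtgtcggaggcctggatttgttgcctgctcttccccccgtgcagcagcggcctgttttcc
The 3 motifs searched on both strands were TAATTA (its own reverse complement), TAATCC for OTX factors and GGTGTGA for T-box factors. The Otx2 window held 1 TAATTA, 141 bases before the start, and 4.84% of 32851 promoter windows of this length held that motif. TAATCC occurred in 6.25% and GGTGTGA in 3.33% of windows, and neither was found in these 3. Another of the Otx2 windows, chr14:48665110-48665359, held 3 TAATTA and 1 TAATCC and is not printed, and the remaining Otx2 windows and the Lmx1b window held none of the 3 motifs. The Eomes window had a GC content of 46.4% with 8 CpG dinucleotides, the Lmx1a window 59.2% with 9, and the Otx2 window 42% with 6. These matches describe letters in a window only.

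Unipolar brush cells stood out by Eomes, by Lmx1a together with nuclei of a mixed brush/granule label, and not by Otx2 or Lmx1b (plot of levels by type). The label for unipolar brush cells, called brush cells from here on, covered 1303 nuclei, 306 and 247 in the WT libraries and 396 and 354 in the Tbx1+/- libraries. A second label named both brush cells and granule neurons and covered 1028 nuclei, called mixed brush/granule nuclei here (285, 216, 181 and 346 in the same order). Eomes in brush cells measured 145 and 213 CPM in WT and 182 and 190 CPM in Tbx1+/- (182 ± 28.5). Brush cells held 38.5% of all Eomes UMIs in 2.76% of all UMIs. In mixed brush/granule nuclei Eomes was 25.9 and 24.7 CPM in WT and 23.8 and 17.9 CPM in Tbx1+/- (23.1 ± 3.56). The 4 brush cell values all lay above the 4 mixed brush/granule values, by 5.58- to 10.6-fold within a library. Among the other rhombic lip derivatives, differentiating granule neurons had 11.3 ± 2.17 CPM, early rhombic lip nuclei (RL.early) 8.22 ± 1.67 and granule neuron progenitors (GNPs) 7.15 ± 2.34, and the ranges of these 3 overlapped. Progenitors of GABAergic interneurons were in the same range at 8.90 ± 2.03 CPM. Pericytes had a mean of 10.9 CPM from 2 UMIs in 74 nuclei, and the remaining types had means of 0.937 (GABAergic interneurons) to 6.85 CPM (astroglia). Oligodendrocytes, a lineage not known to express these factors, gave a background of 4.26 ± 0.987 CPM.

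**Figure D1:**
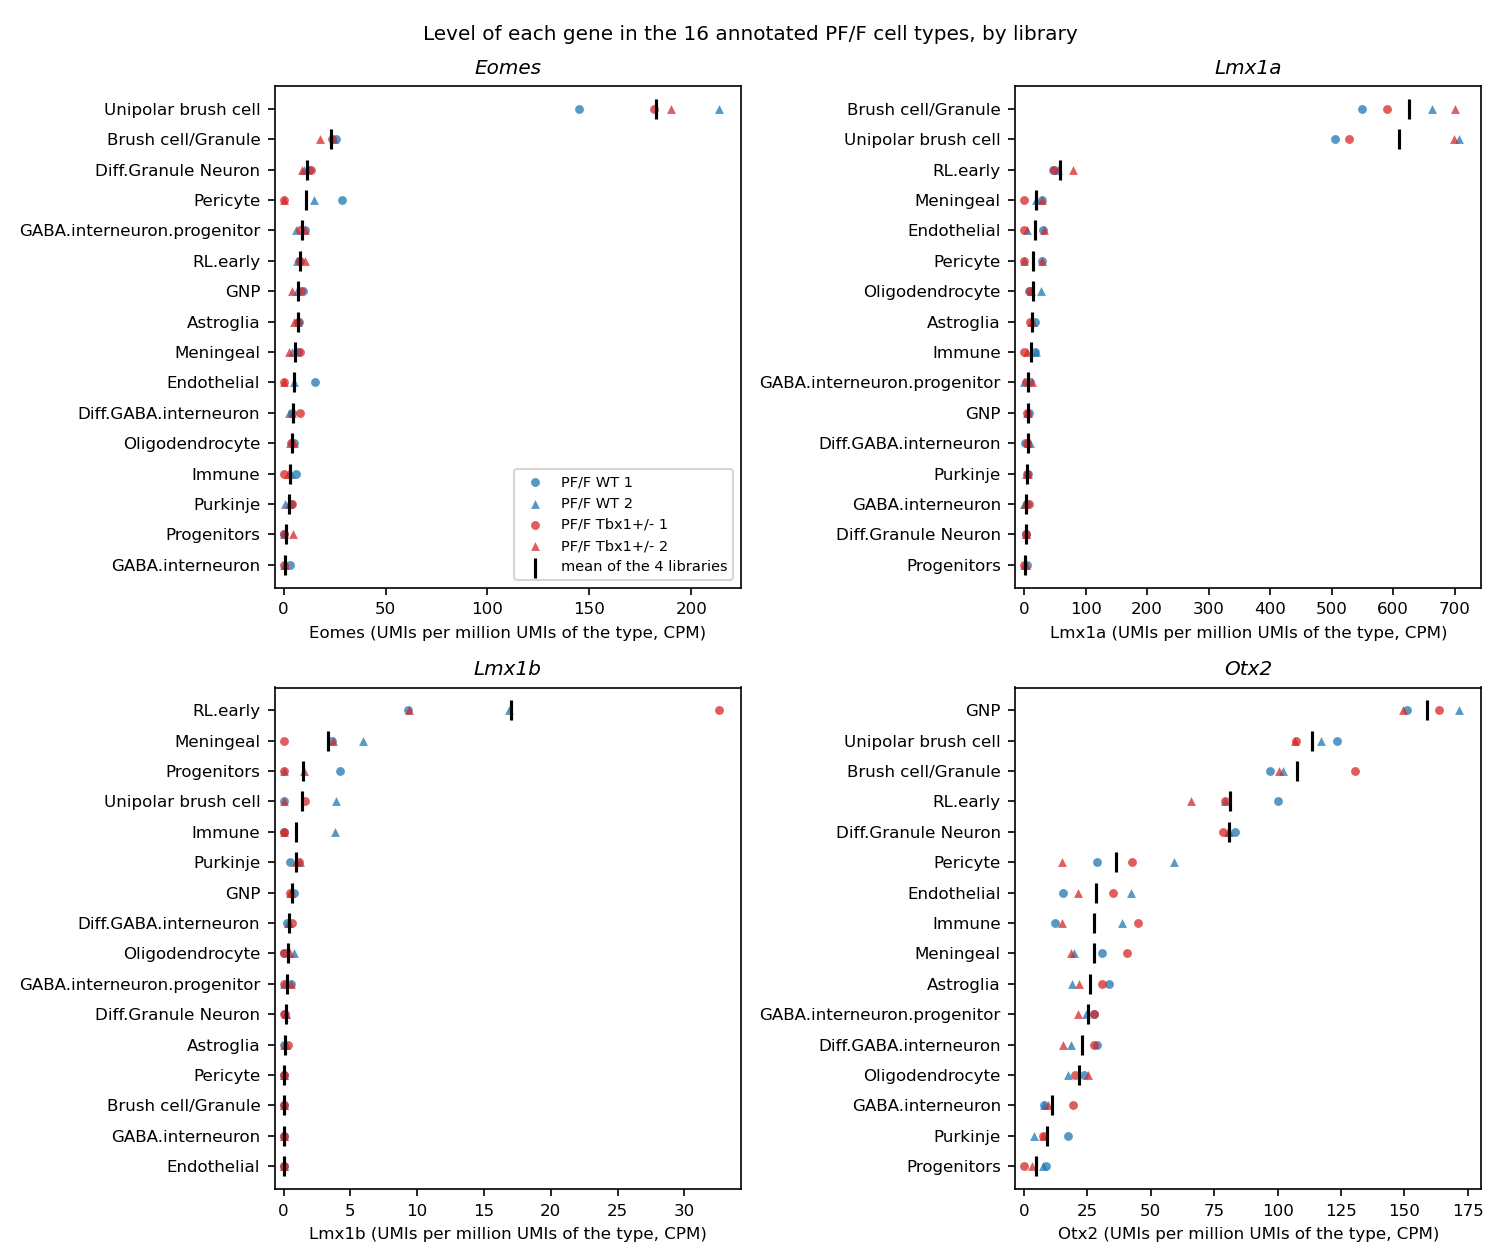
Level of each gene, in CPM of the summed nuclei on a linear scale, in each of the 4 PF/F libraries (points; blue WT, red Tbx1+/-) and as their mean (black tick) for the 16 annotated types. Eomes is highest in brush cells (182 ± 28.5 CPM), Lmx1a is similarly high in brush cells and mixed brush/granule nuclei, Otx2 is highest in GNP, and Lmx1b reaches its highest mean in RL.early (17.0 ± 11.0 CPM).

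Lmx1a did not separate the brush cell and mixed labels. In brush cells it measured 505 and 708 CPM in WT and 528 and 699 in Tbx1+/- (610 ± 108), and in mixed brush/granule nuclei 549 and 663 in WT and 591 and 700 in Tbx1+/- (626 ± 68.6). The ranges overlapped, brush cells were higher in 1 of 4 libraries, and the ratio of the means was 0.98. In both types the replicate 2 library of each genotype was above the replicate 1 library of both genotypes. Brush cells held 43.9% and mixed brush/granule nuclei 38.3% of all Lmx1a UMIs. Every other type was far lower. RL.early nuclei followed at 46.5 and 55.6 CPM in WT and 48.9 and 79.8 in Tbx1+/- (57.7 ± 15.3), GNPs had 5.97 ± 1.37 and differentiating granule neurons 2.95 ± 0.309. Oligodendrocytes ranged from 7.30 to 27.6 CPM for Lmx1a, above differentiating granule neurons in 4 of 4 libraries and above GNPs in 3 of 4, so they are not the lowest level for this gene. Meningeal nuclei had the highest mean among the types outside the rhombic lip lineages, 19.3 ± 13.5 CPM with 0 in 1 library, and progenitors the lowest at 1.83.

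Otx2 was highest in GNPs, with brush cells next. GNPs, the dividing cells of the external granular layer, had 151 and 172 CPM in WT and 164 and 149 in Tbx1+/- (159 ± 10.7). Brush cells had 123 and 117 in WT and 107 and 107 in Tbx1+/- (114 ± 8.0), all below the lowest GNP value. Mixed brush/granule nuclei (108 ± 15.6), RL.early (81.2 ± 14.3) and differentiating granule neurons (80.8 ± 1.95) came next, each overlapping its neighbor in the order. Within a library GNPs exceeded differentiating granule neurons 1.81- to 2.13-fold and brush cells exceeded them 1.33- to 1.48-fold. Differentiating granule neurons, the largest type at 36.1% to 38.9% of annotated nuclei per library, contributed 41.8% of all Otx2 UMIs. Oligodendrocytes stood at 21.5 ± 3.54 CPM, and the types outside the rhombic lip lineages had means from 4.72 (progenitors, 6 UMIs) to 36.3 (pericytes, 8 UMIs). The antisense gene Otx2os1 was ordered differently, with RL.early first at 419 ± 33.6, then GNPs at 304 ± 18.3, brush cells at 240 ± 10.2 and mixed brush/granule nuclei at 194 ± 10.1. Otx1, the paralog of Otx2, reached 3.69 ± 1.27 CPM in GNPs and 0.645 in brush cells.

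Lmx1b was nearly undetected in brush cells. In brush cells it was at 0 and 3.90 CPM in WT and at 1.59 and 0 in Tbx1+/-, from 6 UMIs in 5 nuclei. No UMI was found in mixed brush/granule nuclei, which by the limit of 3 counts allows up to 2.07 to 5.09 CPM depending on the library. The highest level was in RL.early, at 9.29 and 16.9 CPM in WT and 32.6 and 9.39 in Tbx1+/- (17.0 ± 11.0), where 39 UMIs in 31 nuclei made up 37.5% of the 104 Lmx1b UMIs of all annotated nuclei. The large SD came from 1 Tbx1+/- library. Meningeal nuclei were next at 3.32 ± 2.46 CPM from 8 UMIs, and endothelial cells, GABAergic interneurons and pericytes had no UMI. Counts this small limit any order below RL.early.

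Levels of different genes were compared per kb of gene span, since intronic reads were counted and the spans range from 7.92 kb (Eomes) to 160 kb (Lmx1a). On this scale Eomes led in brush cells at 23.0 ± 3.59 CPM per kb, followed by Otx2 at 7.04 ± 0.496 and Lmx1a at 3.82 ± 0.679. In mixed brush/granule nuclei the order was Otx2 at 6.66, Lmx1a at 3.92 and Eomes at 2.91 CPM per kb. In GNPs Otx2 was at 9.84 CPM per kb. Without division by length, Lmx1a made up 67.3% of the 4361 member UMIs in brush cells and 83.4% of 3067 in mixed brush/granule nuclei, while Otx2 made up 92.1% of 4636 in GNPs. RL.early was mixed, with Otx2 at 48.3%, Lmx1a at 36.9%, Lmx1b at 9.61% and Eomes at 5.17% of 406 UMIs.

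At the level of single nuclei, Lmx1a was found in most brush cells and Eomes in fewer. A Lmx1a UMI was present in 72.2% to 83.0% of brush cells per library and in 77.3% to 88.4% of mixed brush/granule nuclei, against 0.966% to 3.90% of oligodendrocytes. Median depths were 2856 to 3820 UMIs in brush cells, 2845 to 4022 in mixed brush/granule nuclei and 2960 to 3990 in oligodendrocytes. With each nucleus thinned to 1500 UMIs the shares were 49.6% to 58.2%, 56.4% to 61.5% and 0.518% to 1.91%. Eomes was present in 39.5% to 54.7% of brush cells (21.1% to 28.5% thinned) and in 6.36% to 10.2% of mixed brush/granule nuclei (2.16% to 4.19% thinned), with 1.21% to 1.85% in oligodendrocytes (0.499% to 0.721% thinned). Otx2 was present in 30.7% to 38.9% of GNPs (19.2% to 22.1% thinned; median depths 2294 to 2966) and in 25.8% to 35.6% of brush cells (14.0% to 16.7% thinned). Its share of oligodendrocytes was 6.04% to 8.37% (2.01% to 3.09% thinned). A nucleus without a UMI is not shown to lack the transcript at these depths.

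Counting the members per nucleus, 118 brush cells had none of the 4, 523 had 1, 507 had 2 and 155 had 3 (plot of members per nucleus). Mixed brush/granule nuclei had 3 members in 24 of 1028, GNPs in 9 of 9404. Within brush cells Eomes and Lmx1a shared 472 nuclei against 466 from the product of their shares per library, Eomes and Otx2 200 against 186, and Lmx1a and Otx2 292 against 304. With nuclei thinned to 1500 UMIs these pairs were above the product in 1, 2 and 0 of 4 libraries. Brush cells with an Eomes UMI (608) and without (695) had similar Lmx1a levels of 605 and 614 CPM. Calb2 (calretinin), which marks a brush cell subtype, was lower with Eomes in 4 of 4 libraries, at 62.0 against 69.8 CPM. These values describe nuclei that share a library and carry no test.

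**Figure D2:**
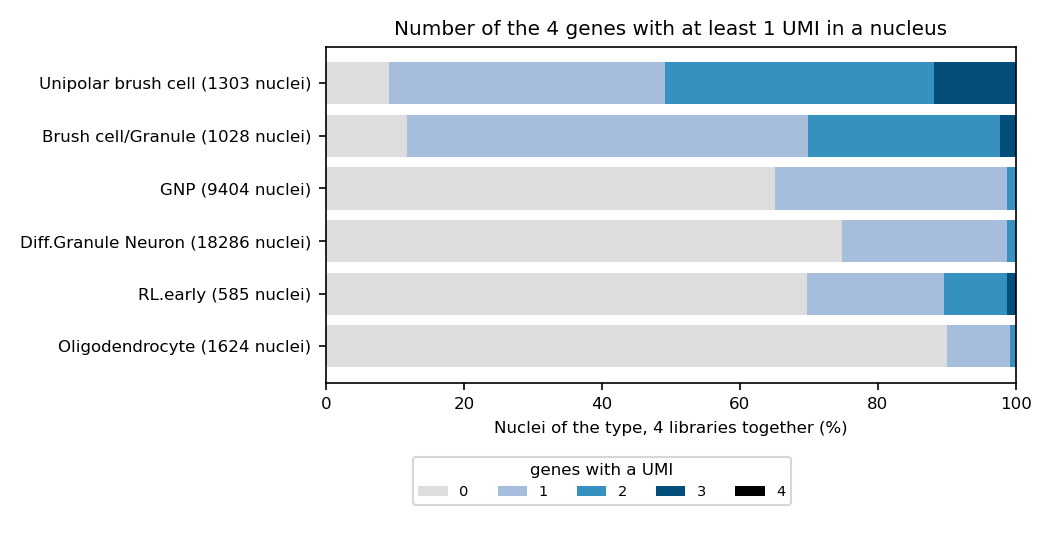
Share of nuclei, in percent, in which a UMI of none, 1, 2, 3 or all 4 of Eomes, Lmx1a, Lmx1b and Otx2 was found, by annotated type and summed over the PF/F libraries. Brush cells have the highest share with 2 or more members (507 nuclei with 2 and 155 with 3 of 1303), and most GNP nuclei with any member have only 1 (3158 of 9404).

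The brush cell labels were checked against other genes. Of 8 further genes known from unipolar brush cells, 6 were above oligodendrocytes in every library in brush cells and 4 in mixed brush/granule nuclei. Grp, a neuropeptide, was at 271 CPM in brush cells and 21.8 in mixed brush/granule nuclei, and Calb2 at 66.0 and 30.1. Of 9 granule lineage genes, 7 were above oligodendrocytes in every library in brush cells and 8 in mixed brush/granule nuclei. Reln, secreted by granule neurons, was at 375 CPM in brush cells and 1563 in mixed brush/granule nuclei, and the NeuN gene Rbfox3 at 285 and 557. The mature granule neuron receptor gene Gabra6 was at 1.10 and 20.9 CPM. Mixed brush/granule nuclei thus combined the Lmx1a level of brush cells with lower Eomes, Grp and Calb2 and higher Reln, Rbfox3 and Gabra6, and their median depth overlapped that of brush cells, while the part of doublets was not tested. In brush cells 3 of 8 choroid plexus genes (Ttr, Folr1 and Prlr) were above oligodendrocytes in every library, and none of the 4 astroglial or 5 GABAergic genes was.

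RL.early carried signs of more than the rhombic lip. Of 8 rhombic lip genes 3 were above oligodendrocytes in every library, beside 6 above and 1 below in GNPs. Wls, needed for Wnt secretion, was 1 of the 3 in RL.early, at 357 and 408 CPM in WT and 458 and 272 in Tbx1+/-. All 4 astroglial genes were above oligodendrocytes in RL.early as well, and so were 7 of 8 choroid plexus genes. Ttr, the transthyretin gene of the choroid plexus epithelium, was at 1395 and 1343 CPM in WT and 2757 and 4287 in Tbx1+/-. Of 585 RL.early nuclei, 110 had a UMI of at least 1 of the choroid plexus genes Folr1, Kl, Clic6, Kcne2, Aqp1 and Sostdc1 (18.8%), against 2.16% of oligodendrocytes and 2.16% of GNPs, so a small share is background and a single UMI does not assign a nucleus to the choroid plexus. The split did not use Ttr, also found in oligodendrocytes at 99.6 CPM, or Prlr, which was not above oligodendrocytes in RL.early in every library. These nuclei gave 19.7% of the RL.early UMIs but 88 of 150 Lmx1a, 94 of 196 Otx2, 19 of 39 Lmx1b and 5 of 21 Eomes UMIs. This split was chosen after values of these nuclei had been seen.

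With such a UMI, Lmx1a measured 65.7 and 152 CPM in WT and 171 and 259 in Tbx1+/-, and without it 42.5 and 34.8 in WT and 15.6 and 30.0 in Tbx1+/-. Otx2 was 274 and 181 in WT and 161 and 178 in Tbx1+/- with, and 64.9 and 57.3 in WT and 57.1 and 34.5 in Tbx1+/- without. Both genes were higher with in 4 of 4 libraries (plot of RL.early split by choroid plexus genes), and the depth of the split nuclei was close, with medians of 3945 and 3610 UMIs. Without these nuclei RL.early had 30.7 ± 11.3 CPM of Lmx1a, 53.4 ± 13.1 of Otx2 and 10.4 ± 3.44 of Lmx1b, whose highest library fell from 32.6 to 15.6 CPM. In brush cells the same split set apart 88 of 1303 nuclei and left Lmx1a at 627 with and 608 without. In RL.early the pairs without Eomes were found together more often than the product of their shares. Lmx1a and Otx2 shared 44 nuclei against 16.1, Lmx1b and Otx2 14 against 6.21, and Lmx1a and Lmx1b 12 against 4.16, each above the product in 4 of 4 libraries also after thinning. With Eomes the numbers were small, at 6 against 2.45 for Lmx1a, 3 against 3.41 for Otx2 and 1 against 0.914 for Lmx1b. In GNPs Lmx1a and Otx2 shared 58 nuclei against 38.8, above the product in 4 of 4 libraries after thinning. Eomes and Lmx1a shared 8 against 2.30, Lmx1a and Lmx1b 5 against 0.164 and Lmx1b and Otx2 8 against 4.25, each in 3 of 4 libraries. Eomes and Otx2 shared 60 against 60.4, and after thinning this pair was above the product in 0 of 4 libraries.

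**Figure D3:**
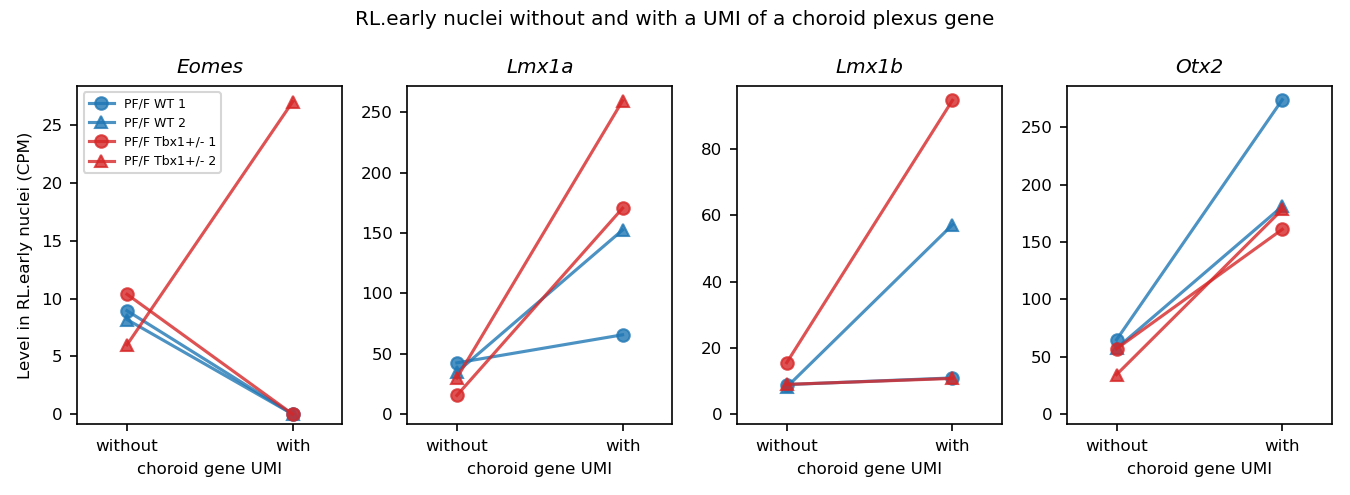
Level in CPM of each member in RL.early nuclei with and without a UMI of a choroid plexus gene (Folr1, Kl, Clic6, Kcne2, Aqp1 or Sostdc1), by PF/F library (points), with lines joining values of the same library. Without and with such a UMI, Lmx1a is at 30.7 ± 11.3 and 162 ± 79.4 CPM and Otx2 at 53.4 ± 13.1 and 199 ± 51.0 CPM.

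Across the 16 types, the mean log2(CPM + 1) of Eomes went with that of Lmx1a (Pearson r = 0.82) and Otx2 (0.75), and Lmx1a with Otx2 (0.63), while Lmx1b had r of 0.10, 0.21 and 0.15 with Eomes, Lmx1a and Otx2. These coefficients describe 16 types that share libraries, and much of them comes from the few types where a gene is high. The nearest genes named here hold for this measure only, since by Spearman's rho none of the 5 nearest was shared for any member. Among 15731 genes reaching 10 CPM in at least 1 type, Dclk3, a doublecortin-like kinase gene, was nearest to both Eomes (r = 0.876) and Lmx1a (0.916). It was at 163 CPM in brush cells and 90.5 in mixed brush/granule nuclei. For Eomes the next were 9330154J02Rik (0.867), Cbln4 (0.858), Fat2 (0.855) and Gm13219 (0.839). For Lmx1a they were the R-spondin gene Rspo2 (0.910), 9330154J02Rik (0.887), Nnat (0.852) and Tpbg (0.831). Nearest to Otx2 were Barhl1 (0.92), a homeobox factor of the granule lineage at 173 CPM in GNPs, and the overlapping Otx2os1 (0.913), followed by Gm29398 (0.879), Gm49156 (0.874) and Gm31409 (0.871). The genes nearest to Lmx1b, namely Zc2hc1c, Musk, 4930469B13Rik, 4930540M03Rik and Col8a2, had r of 0.932 to 0.939 and all peaked in RL.early.

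No difference between Tbx1+/- and WT was called for any member, and the intervals of the change left room for moderate differences (plot of log2 changes by genotype). A call required an adjusted p under 0.05 (Benjamini-Hochberg over all genes tested) and more than a 1.5-fold change in edgeR's quasi-likelihood test on the summed counts. In brush cells 0 of 10956 genes were called (0%), 182 genes (1.66%) had an unadjusted p under 0.05, and DESeq2 called 0 as well. Eomes in brush cells had a log2 change of 0.07 ± 0.24 (SE; 95% interval -0.44 to 0.58), Lmx1a 0.04 ± 0.27 (-0.54 to 0.61) and Otx2 -0.14 ± 0.20 (-0.57 to 0.28), each with an adjusted p of 1.00 by edgeR. For Otx2 both Tbx1+/- values were below both WT values, as for 15.5% of all genes tested in brush cells. Lmx1b had too few counts for a test in any single type. Leaving out 1 library at a time gave 7 calls in brush cells without WT replicate 1, 2 without Tbx1+/- replicate 2 and 1 without either of the others, with no member among them.

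In mixed brush/granule nuclei the count was 0 of 10268 genes (0%; 173 or 1.68% at an unadjusted p under 0.05). Log2 differences were 0.12 ± 0.24 for Lmx1a (95% interval -0.40 to 0.64), -0.31 ± 0.33 for Eomes (-1.02 to 0.40) and 0.22 ± 0.22 for Otx2 (-0.25 to 0.69), none of them called. For Eomes both Tbx1+/- values were below both WT values, as for 14.4% of all genes tested there. Without WT replicate 1, 11 genes were called and no member was among them. A test of whether the genotype difference itself differed between brush cells and mixed brush/granule nuclei gave 0 calls among 11278 genes (199 at an unadjusted p under 0.05). Its estimates were -0.07 ± 0.37 for Lmx1a, 0.39 ± 0.40 for Eomes and -0.35 ± 0.28 for Otx2. Both types came from the same libraries, and this fit counted their sums as separate libraries. With the replicate number as a block it also gave 0 calls, with 475 genes at an unadjusted p under 0.05. The blocked estimates were -0.05 ± 0.16 for Lmx1a, 0.49 ± 0.35 for Eomes and -0.32 ± 0.22 for Otx2.

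RL.early gave 0 of 9464 genes (0%; 171 or 1.81% unadjusted) and tested 2 members, Lmx1a at 0.38 ± 0.32 (-0.33 to 1.10) and Otx2 at -0.30 ± 0.28 (-0.92 to 0.32). Eomes, with too few UMIs for a test, was higher in both Tbx1+/- libraries than in both WT libraries, as were 12.7% of the genes tested. The nuclei with a choroid plexus UMI made up 14.2% and 17.1% of RL.early in WT and 21.3% and 21.8% in Tbx1+/-. Without them Lmx1a turned direction, with both Tbx1+/- values (15.6 and 30.0 CPM) below both WT values (42.5 and 34.8). The share of all genes apart in this subset was not computed, so the Lmx1a values are not read as a genotype difference. The split was chosen after values were seen and took out 88 of the 150 Lmx1a UMIs. Eomes overlapped without these nuclei, at 8.95 and 8.19 in WT and 10.4 and 6.00 in Tbx1+/-. GNPs gave 0 of 15361 (0%; 139 or 0.905%), with Otx2 at -0.02 ± 0.16 (-0.39 to 0.34), the narrowest interval among the values of brush cells, mixed nuclei, RL.early and GNPs. Lmx1a and Eomes in GNPs were both at -0.35, with intervals of -1.04 to 0.34 and -1.22 to 0.53. In differentiating granule neurons (0 of 17091, 0%; 106 or 0.62%) the estimates lay between -0.02 and 0.01, and both Tbx1+/- values of Otx2 were below both WT values, as for 11.8% of the genes tested. Over all annotated nuclei (0 of 20756, 0%; 99 or 0.477%) Lmx1b could be tested, at 0.00 with an interval of -1.02 to 1.03. DESeq2 also called 0 genes in each of these comparisons, with 6 to 29 genes at an unadjusted p under 0.05. At 2 libraries per genotype these intervals, and not the p-values, describe what was resolved.

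**Figure D4:**
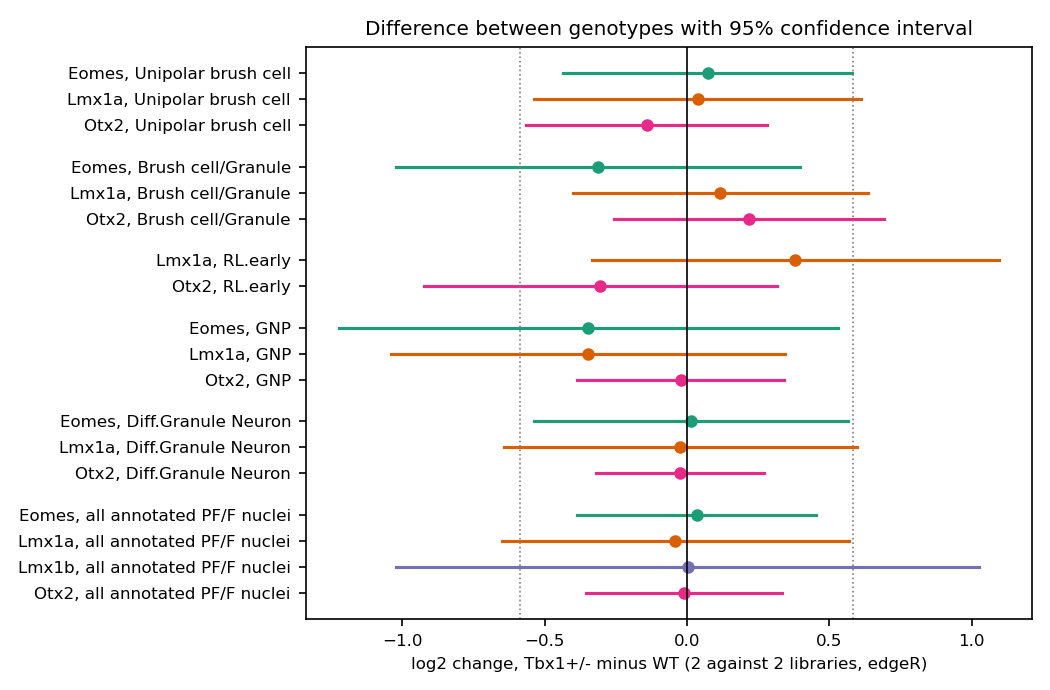
Log2 change (Tbx1+/- minus WT) of each tested member by type, with its 95% interval from edgeR (lines), 2 libraries per genotype, and dotted lines at 1.5-fold in either direction. Every interval includes 0, for example -0.57 to 0.28 for Otx2 in brush cells and -1.22 to 0.53 for Eomes in GNPs.

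No call was made in the lists of related genes either. Of the 8 further genes known from unipolar brush cells, 7 were tested in brush cells, with 0 called by edgeR, 0 at an unadjusted p under 0.05 and a median log2 change of -0.07, beside -0.01 over all genes. The same 7 in mixed brush/granule nuclei gave 0 called, 0 at an unadjusted p under 0.05 and a median of 0.06 beside 0.01. Of 8 granule lineage genes tested in brush cells 0 were called and 0 had an unadjusted p under 0.05, with a median of -0.07. Of 4 rhombic lip genes tested in brush cells the counts were also 0 and 0, and the median was -0.28.

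Ttr was the list gene with the lowest unadjusted p in brush cells. It measured 52.8 and 54.6 CPM in WT and 104 and 227 in Tbx1+/- brush cells, a log2 change of 1.66 ± 0.32 that edgeR did not call (adjusted p = 1.00). Oligodendrocytes moved with it, at 51.6 and 46.5 CPM in WT and 91.1 and 209 in Tbx1+/-. With the replicate number as a block edgeR called Ttr in brush cells (log2 change 1.60 ± 0.16, adjusted p = 8.12e-13) and in mixed brush/granule nuclei, RL.early and GNPs, where 3, 1, 11 and 3 genes were called in that order and no member was among them. Without a filter on low counts edgeR called Ttr in brush cells at 1.68, and it also did so without WT replicate 1 (1.59), WT replicate 2 (1.73) or Tbx1+/- replicate 1 (2.13), but not without Tbx1+/- replicate 2. Meis2, a homeobox gene outside the brush cell lineage, had an unadjusted p of 0.0018 in brush cells with a log2 change of 1.91 ± 0.50 (adjusted p = 1.00 by edgeR).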

How the data were processed

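Nuclei were isolated from PF/F and PTB of P5.5 mice, 5 mice per library. The authors mapped 10x reads to mm10 with Cell Ranger (v7.0.0, intron mode) and deposited raw UMI counts per gene and barcode, with an annotation of nuclei that had passed their filters. They corrected ambient RNA with SoupX for their own analysis, but the deposited counts used here are uncorrected. Free RNA can therefore add to any level, and its amount was not estimated. No doublet caller is given in the sources used here, and none was run. An alternative left out the 8% of nuclei with the most UMIs.

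Counts were summed per library and type. Total UMIs of annotated nuclei and the number of nuclei set the precision, and intervals and limits on counts (exact Poisson or binomial, 95%, or 3 counts for a count of 0) cover counting error only. Per-nucleus shares were also computed after thinning to 1500 UMIs. WT and Tbx1+/- libraries, grouped by the labels, were compared with edgeR (v4.0.16, R v4.3.3; filterByExpr, TMM, quasi-likelihood test, Benjamini-Hochberg), and with DESeq2 (v1.42.0), RLE size factors, no low-count filter, a replicate block and each library left out as alternatives. The scripts were tested on simulated data. Sums per library were tested because nuclei of a library share their mice. The study repeated the experiment with a second set of mice of both genotypes, and the replicate number is taken to mark the set, which the labels do not state. Same-numbered libraries deviated together from their genotype means (r = 0.263 to 0.550 over genes in the 6 comparisons). Named genes were the 4 members, fixed lists of lineage genes, and the 5 genes nearest each member across types (Pearson r, pseudocount 1 CPM, at least 10 CPM in 1 type). Genes named for the replicate block and the Epcam and choroid plexus splits were chosen after values were seen. Some genes of the lists are not reported here. The members and lists were chosen with earlier results of these data known. Python (v3.11.15) was used for sums and plots. Promoter sequences are from RefSeq and all 4 members had an entry.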

Additional observations from a re-analysis of the deposited data

Results flagged for a closer look

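The genotype difference of Eomes had opposite signs in a pair of types, with both libraries of each genotype apart, which held in either direction for 4 of 20 combinations of member and type and for 23.9% of all genes tested in the 5 types. In RL.early both Tbx1+/- libraries (8.14 and 10.6 CPM) were above both WT libraries (7.43 and 6.74 CPM), a difference of means of 2.27 CPM, from 4 and 9 UMIs against 4 and 4. Of all genes tested in RL.early 12.7% were apart in this direction. Without the nuclei with a choroid plexus UMI, which gave 55.6% of the Eomes UMIs of Tbx1+/- replicate 2 and 0% in the other libraries, the genotypes overlapped (8.95 and 8.19 CPM in WT, 10.4 and 6.00 in Tbx1+/-). In mixed brush/granule nuclei both Tbx1+/- libraries (23.8 and 17.9 CPM) were below both WT libraries (25.9 and 24.7 CPM), a difference of -4.50 CPM, and 14.4% of all genes tested there were apart in this direction. The difference between these types was not tested, and neither change was called within its type: edgeR gave 0 calls in mixed brush/granule nuclei and Eomes was too low for a test in RL.early.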

How the results depend on the processing

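With 2 libraries per genotype, 6 to 39 UMIs for Lmx1b in brush cells and RL.early and no ambient correction, small differences could not be resolved. The count of called genes was 0 in the 6 comparisons and stayed 0 with RLE size factors, with DESeq2 and without the nuclei of highest UMIs. It moved to 3 in brush cells, 1 in mixed brush/granule nuclei, 11 in RL.early and 3 in GNP with the replicate block (Ttr in each of these, Ptgds in brush cells, RL.early and GNP, no member), and to 1, 1 and 3 in brush cells, mixed brush/granule nuclei and RL.early with no low-count filter. Leaving out each library gave 1 to 7 in brush cells, 0 to 11 in mixed brush/granule nuclei, 0 to 5 in RL.early, 1 to 2 in GNP, 0 to 39 in Diff.Granule Neuron (the highest count in these 5 types always without PF/F WT replicate 1) and 0 to 0 over all annotated nuclei, the lone library being assumed to vary like the other genotype. The cause was not tested. The replicate block changed no member's call.

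Of 90 log2 changes of members under other settings, 84 kept their direction and side of the threshold. Without the nuclei of highest UMIs Lmx1a turned to 0.030 and Eomes to -0.0037 in Diff.Granule Neuron, and over all annotated nuclei Lmx1a turned to 0.022 and Eomes to -0.00057. Lmx1b over all annotated nuclei turned to -0.0014 with RLE size factors and -0.00094 with DESeq2. Leaving out a library kept 53 of 72, with ranges of log2 change for Eomes of -0.22 to 0.43 in brush cells, -0.98 to 0.068 in GNP, -0.29 to 0.26 in Diff.Granule Neuron and -0.19 to 0.22 overall. Lmx1a ranged over -0.22 to 0.35 in brush cells, -0.047 to 0.30 in mixed brush/granule nuclei, -0.042 to 0.66 in RL.early, -0.24 to 0.13 in Diff.Granule Neuron and -0.38 to 0.22 in all annotated nuclei. Lmx1b there ranged over -0.39 to 0.50, and Otx2 over -0.17 to 0.12 and in GNP over -0.11 to 0.060. The difference between brush cells and mixed brush/granule nuclei for Lmx1a ranged over -0.17 to 0.080. Of 52 levels under other settings 47 stayed within 1 SD. Without nuclei with a choroid plexus UMI, chosen after seeing the data, RL.early had 30.7 CPM of Lmx1a, 53.4 of Otx2 and 10.4 of Lmx1b (17.0 with them, a change within 1 SD). In Diff.Granule Neuron Lmx1a was 2.43 as a mean over nuclei and 2.15 without the nuclei of highest UMIs, and Otx2 85.0 as a mean over nuclei. By Spearman's rho none of the 5 nearest genes of any member was shared with the main choice, and with a pseudocount of 10 CPM 1 was shared for Eomes, 3 for Lmx1a, 2 for Lmx1b and 3 for Otx2.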

Other observations

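The 184 GNPs with an Eomes UMI had 27.9 ± 23.2 CPM of Lmx1a against 5.45 ± 1.40 in the other 9220, higher in 4 of 4 libraries, but from 16 Lmx1a UMIs in 8 nuclei. After thinning the pair was found above the product of its shares in 3 of 4 libraries. Otx2 was 160 against 159 CPM. Within brush cells, the 311 nuclei without a Lmx1a UMI had more Otx2 (155 against 104 CPM) and more Eomes (211 against 176 CPM) than the 992 with one, in 4 of 4 libraries. Depth differed with detection in such splits, and its part was not tested.

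Of the 9721 PF/F barcodes outside the annotation, 1840 UMIs were of Otx2, 881 of Lmx1a, 325 of Eomes and 46 of Lmx1b, at 56.2 ± 8.72, 27.3 ± 6.66, 9.77 ± 2.41 and 1.45 ± 0.534 CPM.

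The PTB libraries also held Lmx1a, known from the epithelium of the developing inner ear. In annotated PTB nuclei it was 13.2 and 19.2 CPM in WT and 16.5 and 8.49 in Tbx1+/-. In barcodes outside the PTB annotation that had a UMI of Epcam, an epithelial adhesion gene, it was 329 and 377 CPM in WT and 395 and 408 in Tbx1+/-, against 64.6 and 161 in WT and 116 and 134 in Tbx1+/- without one. Lmx1a was higher with Epcam in 4 of 4 libraries, in a split chosen after values were seen.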
